A study of Mus musculus with 7 samples.

Results

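Gad1, Gad2, Dlx1, Dlx2, Lhx6, Pvalb, Calb2, Reln and Erbb4 are genes by which inhibitory interneurons are recognised, and Fos peaks around them were compared between kainic acid and saline hippocampus. They are 9 of 21896 protein-coding genes with a position in the gene table. For each gene, peaks of the 6 deposited lists were taken if they overlapped the gene span on GRCm38 or the 50 kb on either side of it (the window of the gene). The rule names the genes and uses no measured value. Peaks hold no expression data, so whether these genes mark interneurons in these samples was not analysed here.

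Fos is a subunit of the transcription factor AP-1, which neurons make in quantity after strong activity and which binds promoters and distal enhancers. Hippocampal interneurons release GABA and restrain the far more numerous pyramidal and granule cells. They arise from progenitors of the ventral forebrain in which Dlx and Lhx genes set their fate, and later differ in the calcium-binding proteins and peptides they make.

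The samples were chromatin from the hippocampus of wild-type C57BL/6J mice aged 2 months, immunoprecipitated with a monoclonal antibody against Fos. The saline group had 3 libraries. The kainic acid group also had 3, from mice given 2 injections of this glutamate receptor agonist into the peritoneum, 30 min apart and at 10 mg/kg, and killed with level 4 seizures 1 h after the first injection. An input library was part of the series and was not used here. How many animals a library holds is not stated, so a p-value measures the spread between these libraries, which may be technical. The tissue is bulk hippocampus, in which fewer cells of a type and less binding per cell cannot be told apart.

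The lists differed greatly in length. They held 15009, 63197 and 29650 peaks in kainic acid replicates 1, 2 and 3, and 7, 3277 and 2 peaks in saline replicates 1, 2 and 3. Read totals are not given in the sources used here, and a missing peak means only that none was called.

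Fos peaks near the interneuron genes were called after kainic acid and almost never with saline, but they were sparse. Kainic acid replicates 1, 2 and 3 had 5, 29 and 12 peaks in the windows of the 9 genes, which together span 2534 kb. Saline replicate 2 had 2 peaks there, and saline replicates 1 and 3 had 0. Every kainic acid list thus held more than every saline list, and replicate 2 was the highest in both groups, as it was the longest list in both.

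Per 100 kb of window, this was 0.197, 1.14 and 0.474 peaks in kainic acid replicates 1, 2 and 3 and 0.0789 in saline replicate 2. The kainic acid mean was 0.605 ± 0.487 (SD, n = 3). The saline mean was 0.0263 ± 0.0456 (SD, n = 3). Their difference of 0.579 peaks per 100 kb was larger than the SD of either group. Permuting the library labels exactly gave a two-sided p = 0.1, below which this design of 3 against 3 cannot go. Without kainic acid replicate 2 the difference was 0.309, and without the windows of Erbb4 and Reln it was 1.30. Set against the density of the same list around all protein-coding genes, saline replicate 2 was at 0.415 times and the kainic acid lists at 0.267 to 0.354 times. The saline value rests on 2 peaks. Without Erbb4 and Reln it was 0.659, within the kainic acid range of 0.509 to 0.814.

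Compared with genes in general, the windows of the interneuron genes held few kainic acid peaks for their length. Over the windows of all protein-coding genes, the 3 kainic acid lists had a mean of 1.82 ± 1.28 peaks per 100 kb (SD, n = 3). The interneuron genes were at 0.267, 0.354 and 0.317 times the density of all genes in replicates 1, 2 and 3, a mean ratio of 0.312 ± 0.0434 (SD, n = 3). The ratio was below 1 in 3 of 3 lists, for which an exact sign-flip permutation test can reach no less than p = 0.25, the value found. Erbb4 and Reln carry most of the window length, and without them the ratio was 0.665 ± 0.152 (SD, n = 3). Gene by gene, the median over the 9 genes was 0.796 peaks per 100 kb (mean of the 3 kainic acid lists), against 1.30 over all protein-coding genes. Without Erbb4 and Reln this median was 1.73, and the median was above that of all genes in 3 of 3 kainic acid lists. Without them, the low density thus holds for the pooled windows but not for the median gene.

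Lists of genes for other hippocampal cells gave higher densities. The mean over the kainic acid lists was 3.89 ± 2.35 peaks per 100 kb (SD, n = 3) around 10 dentate granule cell genes such as Calb1, 3.26 ± 2.72 around 10 pyramidal cell genes such as Wfs1, and 1.56 ± 1.32 around 8 astrocyte genes such as Gfap. The interneuron genes were lower than each of these lists in 3 of 3 kainic acid libraries. Without Erbb4 and Reln their mean was 1.34 ± 1.17, still lower than each list but near the 1.56 of the astrocyte genes. Their median gene was then at 1.73, above the median of the astrocyte list and below those of the dentate and pyramidal lists. The 9 genes were also lower than a wider list of other interneuron genes, at 1.01 ± 0.773. Without Erbb4 and Reln they were above that wider list in 3 of 3 libraries. The difference of the 9 genes from the dentate list was −3.28 ± 1.87 peaks per 100 kb (SD, n = 3), and from the pyramidal list −2.65 ± 2.23. The exact sign-flip permutation test gave p = 0.25 for each of 4 lists compared (0.25 after Benjamini-Hochberg adjustment), which is the smallest value 3 libraries allow.

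**Figure D1:**
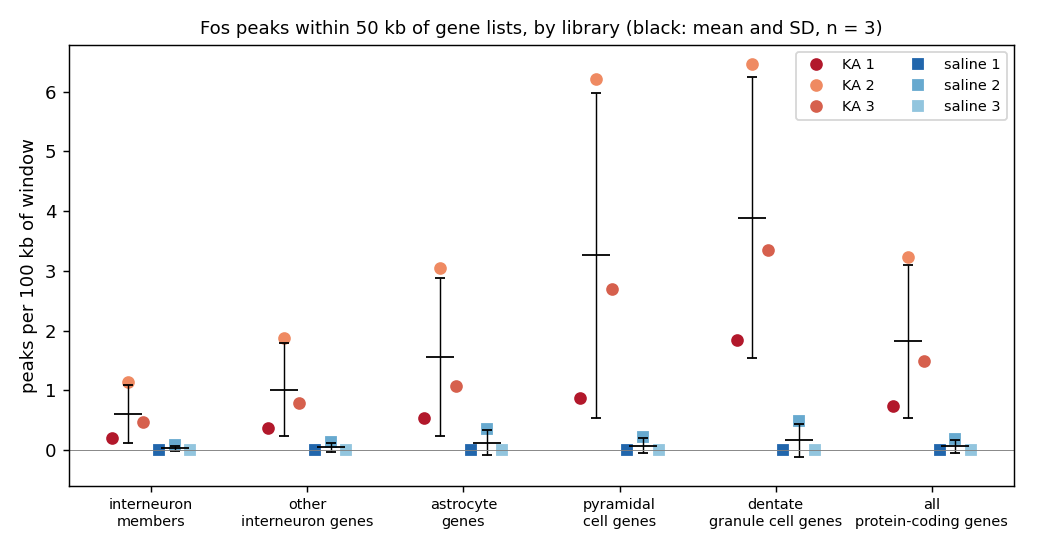
Peaks per 100 kb of window (vertical axis) around 5 gene lists and all protein-coding genes. Each point is a library (KA, kainic acid, circles; saline, squares) and black marks are the group mean and SD (n = 3); the interneuron members have the lowest kainic acid values of the lists shown, with means of 0.605 against 1.82 for all genes, while without Erbb4 and Reln (not drawn) their mean of 1.34 is above the 1.01 of the other interneuron genes.

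**Figure D2:**
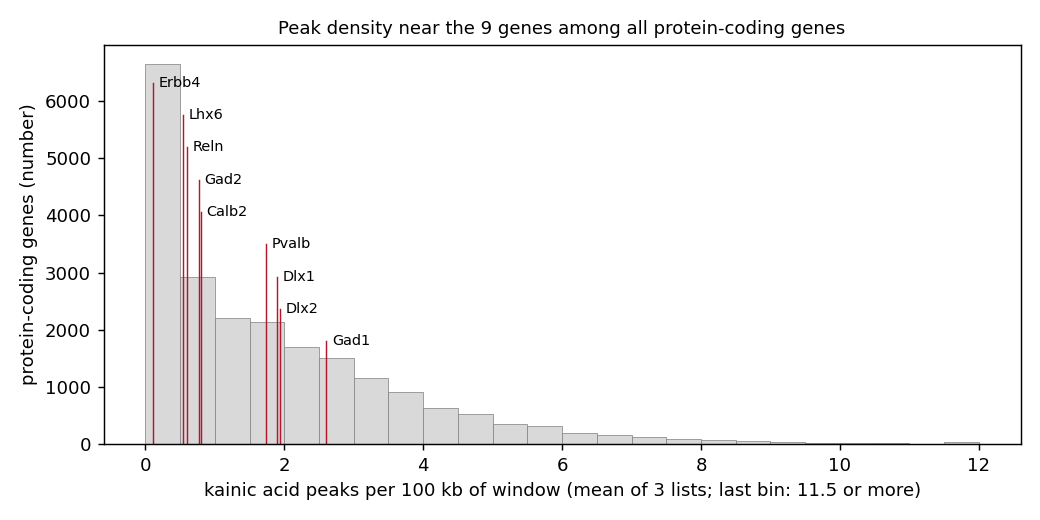
Number of protein-coding genes (vertical axis) by kainic acid peaks per 100 kb of window, as the mean of 3 lists (horizontal axis). Red lines mark the 9 interneuron genes, which lie between Erbb4 at 0.113 and Gad1 at 2.61.

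A count of genes with any Fos site reads differently from the density. Peaks of all lists that shared at least 1 bp were merged into regions. Of the 9 genes, 8 had a region in at least 2 kainic acid lists, beside 62.7% of all protein-coding genes. Dlx1 and Dlx2 share that region, so the 8 genes stand for 7 separate places. A region in all 3 kainic acid lists lay near 6 of 9, beside 42.5%, and these were 5 separate regions. More peaks in each kainic acid list than in any saline list were found for 5 of 9 genes (Gad1, Gad2, Dlx1, Dlx2 and Reln), beside 33.4%. Here too Dlx1 and Dlx2 share their peaks. Lhx6, Pvalb, Calb2 and Erbb4 were the 4 whose groups overlapped.

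These shares rise with window length. Among protein-coding genes with a window under 150 kb, 57.3% had a region in at least 2 lists, and 5 of the 6 interneuron genes of that length did. The background was 80.1% for windows of 150 to 500 kb, where Gad2 falls, and 94.9% for windows of 500 kb or more, where Reln and Erbb4 fall.

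In all, 27 regions with a kainic acid peak lay near the interneuron genes. All 3 kainic acid lists held 5 of them, another 7 were held by 2 lists, and 15 by a single list. All of these 15 came from replicate 2, the longest list. Together, 12 regions had the support of 2 or more lists, 44.4% of the 27 (95% Clopper-Pearson interval 25.5 to 64.7, counting error only), and the share over all 66683 regions with a kainic acid peak was 40.3%. Without kainic acid replicate 2 the number in at least 2 lists was 5, and without replicate 3 it was also 5, when 17.2% were shared. Each of the 5 regions of replicate 1 was also in replicates 2 and 3. Over all 66683 regions, 11937 were in all 3 lists, while replicate 1 held 15009 peaks. Most peaks of replicate 1 thus lay in such regions. Of all regions, 35458 were in replicate 2 alone and 26862 in at least 2 lists. Most regions in a single list thus came from replicate 2 there too.

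Most of these regions were away from gene starts. Of the 27, 12 lay inside the span of an interneuron gene, and 17 had such a gene as the nearest protein-coding gene. For the other 10 the nearest was a neighbour such as Metap1d, Ift27 or Mrrf. Summits within 1 kb of a protein-coding start site were found in 3 regions, at Gad1, Dlx1 and Rbm18. The gene table gives spans without exons, so exons and introns were not told apart. Whether these positions differ from those of kainic acid regions in general was not tested, so the counts only describe the regions near the interneuron genes.

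**Figure D3:**
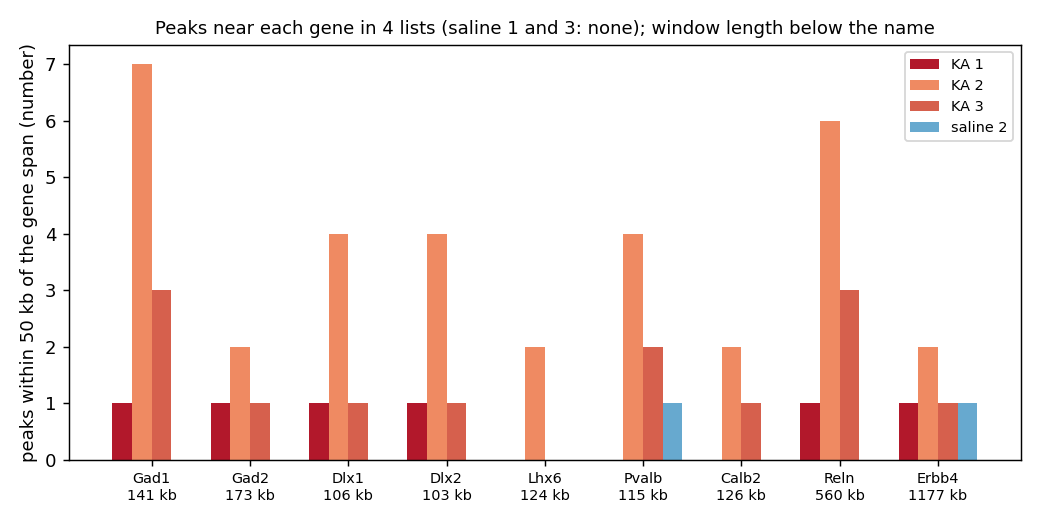
Number of peaks within 50 kb of each gene span (vertical axis) in 4 lists, with the window length under the gene name. Kainic acid replicate 2 has the most peaks at every gene, up to 7 at Gad1, and saline replicate 2 has 1 each at Pvalb and Erbb4.

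**Figure D4:**
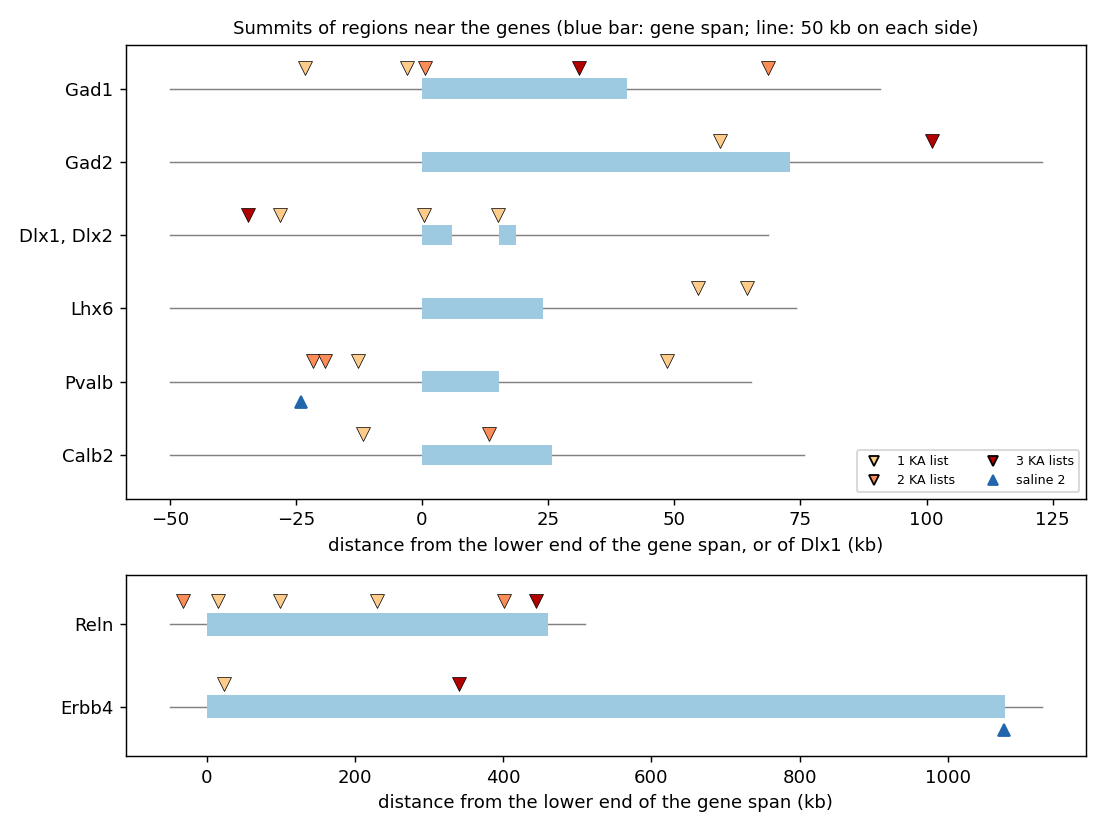
Position of each region's summit in kb from the lower end of the gene span (horizontal axis; from the lower end of Dlx1 for Dlx1 and Dlx2). Downward triangles are regions with kainic acid peaks, coloured by the number of lists, and upward triangles are peaks of saline replicate 2; the 5 regions in all 3 lists lie at Gad1, Gad2, the Dlx genes, Reln and Erbb4.

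Gad1 and Gad2 encode the glutamate decarboxylases that make GABA. Gad1 (chromosome 2, 70561303 to 70602014) had 1, 7 and 3 peaks in kainic acid replicates 1, 2 and 3 and 0 in each saline list. The mean of 2.61 ± 2.17 peaks per 100 kb (SD, n = 3) was the highest of the 9 genes and above that of 73.0% of all protein-coding genes. The 2 groups did not overlap, and replicate 2 supplied most of the peaks.

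The best-ranked region near Gad1 lay inside the gene, 30.3 kb after its start site, at chromosome 2, 70591988 to 70593948. Its deposited fold over local background was 5.93, 10.1 and 6.67 in kainic acid replicates 1, 2 and 3. Ranked by fold, it was number 2547 of 15009, 3284 of 63197 and 2859 of 29650. Expressed as percentiles of the list, counted from the highest fold downwards, these are ranks of 17.0, 5.20 and 9.64, a mean of 10.6. This was the best mean rank among the 5 regions found in all 3 lists near interneuron genes. The reads over the summit, recovered from the deposited fold and p-value, were 24, 37 and 33, over backgrounds of 3.22, 2.75 and 4.10 reads.

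A different Gad1 region ended shortly before the start site, with its summit 0.202 kb before it, at chromosome 2, 70561301 to 70562077. It had peaks in kainic acid replicates 2 and 3 with folds of 5.52 and 3.59 and none in replicate 1 or in any saline list. Its ranks were modest, at percentiles of 28.7 and 65.4. The antisense RNA gene Gad1os overlaps this place, and peaks carry no strand. Another region of replicates 2 and 3 lay 27.4 kb beyond the end of the gene (folds of 7.73 and 4.57).

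Sequence at the start of Gad1 is shown because it was the sole start window of an interneuron gene that a kainic acid peak reached. The sequence is RefSeq's (GRCm38.p6), chr2:70561879-70562178 on the plus strand, 250 bases before to 50 after the start site, with the 199 bases under a kainic acid peak in capitals.
Gad1: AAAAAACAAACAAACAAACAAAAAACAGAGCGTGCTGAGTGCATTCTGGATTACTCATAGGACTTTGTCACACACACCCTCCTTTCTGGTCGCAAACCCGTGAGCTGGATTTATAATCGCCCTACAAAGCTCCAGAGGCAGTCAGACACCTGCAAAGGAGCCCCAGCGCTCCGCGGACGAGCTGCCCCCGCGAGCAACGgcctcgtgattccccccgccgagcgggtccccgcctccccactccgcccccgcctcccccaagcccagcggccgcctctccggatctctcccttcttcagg
Start windows of this kind were matched for 8 of the 9 genes, 11 windows in all, and only that of Gad1 had a kainic acid peak. Over 21262 such windows of protein-coding genes, 1.17%, 12.6% and 3.68% had a peak in kainic acid replicates 1, 2 and 3. The AP-1 letters TGANTCA, searched on both strands, were not in these 300 bases of Gad1, nor was the cyclic AMP response element TGACGTCA.

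Gad2 (chromosome 2, 22621015 to 22693877) had 1, 2 and 1 peaks in kainic acid replicates 1, 2 and 3 and 0 in each saline list. Its mean density of 0.771 ± 0.334 peaks per 100 kb (SD, n = 3) was above that of 37.2% of protein-coding genes. Among the 4592 genes with a window of 150 to 500 kb, whose median was 1.62, 1238 were lower. The groups did not overlap, but by a single peak in 2 of the libraries. Its region in all 3 lists lay outside the gene, 27.6 kb beyond its end, at chromosome 2, 22721526 to 22722140. The folds were 7.31, 6.80 and 3.84, at rank percentiles of 7.34, 16.7 and 55.4. In replicate 1 this was the highest-ranked peak near any of the 9 genes, with 46 reads over the summit, yet in replicate 3 it was in the lower part of its list.

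Dlx1 and Dlx2 are homeobox transcription factor genes of the interneuron lineage that lie side by side. Dlx1 (chromosome 2, 71528113 to 71533981) and Dlx2 (71543408 to 71546754) share all 4 of their kainic acid regions within 50 kb, so their counts are not independent. Either gene had 1, 4 and 1 peaks in kainic acid replicates 1, 2 and 3 and 0 in the saline lists. The mean for Dlx1 was 1.89 ± 1.64 peaks per 100 kb (SD, n = 3), above 61.2% of protein-coding genes, and for Dlx2 1.94 ± 1.68.

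The single region of the pair in all 3 lists overlapped the neighbouring gene Metap1d, 35.8 kb before the start of Dlx1, at chromosome 2, 71493171 to 71494392. Its folds were 5.22, 8.07 and 4.70, at percentiles of 27.1, 10.6 and 31.1. A much stronger peak was called in replicate 2 alone. It lay just beyond the end of Dlx2, in the stretch between both genes, at chromosome 2, 71542530 to 71543400, a kind of place known in this locus for forebrain enhancers. With a fold of 11.7 and 45 reads over its summit it was number 1953 of 63197, a percentile of 3.09 and the highest rank of any region near the 9 genes. Replicates 1 and 3 had no peak there. The Dlx1 start had a peak in replicate 2 alone too, 0.952 kb before the start site, with a low fold of 3.24 and a percentile of 88.2.

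Lhx6 encodes a LIM homeobox factor needed by interneurons that later make parvalbumin or somatostatin. Lhx6 (chromosome 2, 36081950 to 36105992) had 0, 2 and 0 peaks in kainic acid replicates 1, 2 and 3 and 0 with saline. It was the only one of the 9 with no region in at least 2 lists, and its groups overlapped at 0. Having no peak of replicate 1 was common, at 53.7% of protein-coding genes. Both peaks lay in neighbouring genes more than 30 kb before the Lhx6 start. The first, at chromosome 2, 36136539 to 36136787, was 0.026 kb from the start of Rbm18 (fold 3.07, percentile 92.5), and the other was inside Mrrf (fold 4.86, percentile 38.3).

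Lhx6 has several start windows. The first of them in the direction of the gene is shown because it alone of the 11 start windows held the AP-1 letters. No list had a peak on it. It is RefSeq's chr2:36105359-36105658 on the minus strand (GRCm38.p6), written in the direction of the gene, with the AP-1 letters in capitals, the first of them 181 bases before the start site.
Lhx6: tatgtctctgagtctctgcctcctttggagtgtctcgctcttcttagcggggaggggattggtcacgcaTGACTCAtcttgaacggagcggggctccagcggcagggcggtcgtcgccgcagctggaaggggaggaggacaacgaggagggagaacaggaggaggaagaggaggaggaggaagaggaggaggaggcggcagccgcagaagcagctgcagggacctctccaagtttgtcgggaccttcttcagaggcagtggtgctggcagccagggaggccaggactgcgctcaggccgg
Of 21262 start windows of protein-coding genes, 6.99% held TGANTCA and 2.23% held TGACGTCA. The nearest kainic acid summit to this start site was 31.3 kb away in replicate 2.

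Pvalb and Calb2 encode the calcium-binding proteins parvalbumin, typical of fast-spiking basket cells, and calretinin, found in interneurons that contact other interneurons. Pvalb (chromosome 15, 78191112 to 78206400) had 0, 4 and 2 peaks in kainic acid replicates 1, 2 and 3 and 0, 1 and 0 in saline replicates 1, 2 and 3. Its mean of 1.73 ± 1.73 peaks per 100 kb (SD, n = 3) was above that of 58.4% of protein-coding genes. The groups overlapped, because kainic acid replicate 1 had none and saline replicate 2 had 1.

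None of the Pvalb regions was inside Pvalb, and all 4 were nearer to Ift27 or Ncf4. The better-ranked of its 2 shared regions was inside Ift27, at chromosome 15, 78171612 to 78172564, 18.5 kb from the Pvalb span. Folds of 8.05 and 6.12 in replicates 2 and 3 put it at percentiles of 10.7 and 13.1, with 35 and 40 reads over the summit. The saline replicate 2 peak was also inside Ift27, at chromosome 15, 78166970 to 78167171 (fold 3.69, percentile 73.1), and overlapped no kainic acid peak. Both shared regions rest on kainic acid replicates 2 and 3 alone, so by definition neither is shared once either list is left out.

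Calb2 (chromosome 8, 110142526 to 110168212) had 0, 2 and 1 peaks in kainic acid replicates 1, 2 and 3 and 0 with saline. The groups overlapped at 0 through replicate 1. Its mean of 0.796 ± 0.796 peaks per 100 kb (SD, n = 3) was above that of 37.6% of protein-coding genes. Its shared region was inside the gene, at chromosome 8, 110155576 to 110156270, with folds of 6.38 and 4.85 in replicates 2 and 3, at percentiles of 20.0 and 28.2. A region of replicate 2 alone lay 11.5 kb outside the gene (fold 4.15).

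Reln encodes reelin, a secreted protein that guides layering in development and is made in the adult hippocampus by interneurons. Reln (chromosome 5, 21884454 to 22344705) had 1, 6 and 3 peaks in kainic acid replicates 1, 2 and 3 and 0 in each saline list. Its groups did not overlap, yet over a window of 560 kb this was only 0.595 ± 0.449 peaks per 100 kb (SD, n = 3). Among the 351 protein-coding genes with a window of 500 kb or more, whose median was 1.31, 76 were lower. In that class 87.7% of genes had more peaks in each kainic acid list than in any saline list.

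Of the 6 Reln regions, 5 were inside the gene. The region in all 3 lists lay 15.9 kb after the start site, at chromosome 5, 22328538 to 22329295. Its folds were 4.80, 8.37 and 4.97, at percentiles of 35.9, 9.27 and 26.0. A region in replicates 2 and 3 lay 59.0 kb after the start (folds of 4.40 and 3.92), and another beyond the end of the gene, in Slc26a5 (7.41 and 3.48). The other 3 were in replicate 2 alone. No list had a peak on the Reln start window.

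Erbb4 encodes a receptor tyrosine kinase for neuregulins that hippocampal interneurons carry. Erbb4 (chromosome 1, 68031884 to 69108576) is the longest of the 9 genes and had the fewest peaks for its length. There were 1, 2 and 1 peaks in kainic acid replicates 1, 2 and 3 and 0, 1 and 0 in saline replicates 1, 2 and 3, over a window of 1177 kb. The kainic acid mean was 0.113 ± 0.0491 peaks per 100 kb (SD, n = 3) and the saline mean 0.0283 ± 0.0491. The groups overlapped, since saline replicate 2 had as many peaks as kainic acid replicates 1 and 3. Of the 351 genes with a window of 500 kb or more, 17 (4.84%) had a lower kainic acid density.

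The Erbb4 region in all 3 kainic acid lists was inside the gene, 736 kb after its start site, at chromosome 1, 68371568 to 68372112. Folds of 4.32, 3.78 and 4.17 put it at percentiles of 51.1, 68.9 and 43.8, the lowest mean rank of the 5 regions in all 3 lists. The summit held 17, 13 and 20 reads. The saline replicate 2 peak was elsewhere, on the start of the gene, at chromosome 1, 69107943 to 69108146. Its summit was 0.012 kb from the start site, with a fold of 4.93, 15 reads over a background of 2.25, and rank 549 of 3277 in its list. The nearest kainic acid summit to this start site was 134 kb away.

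The Erbb4 start is shown because it carried the only saline peak at a start site of the 9 genes. It is RefSeq's chr1:69108010-69108309 on the minus strand (GRCm38.p6), in the direction of the gene, with the 137 bases under the peak of saline replicate 2 in capitals.
Erbb4: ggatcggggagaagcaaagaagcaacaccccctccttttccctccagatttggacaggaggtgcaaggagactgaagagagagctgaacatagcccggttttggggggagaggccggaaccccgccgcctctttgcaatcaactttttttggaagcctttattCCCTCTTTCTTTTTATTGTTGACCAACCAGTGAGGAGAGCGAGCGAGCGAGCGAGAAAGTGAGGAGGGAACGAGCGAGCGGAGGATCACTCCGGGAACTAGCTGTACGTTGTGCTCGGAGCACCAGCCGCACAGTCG
These bases held neither TGANTCA nor TGACGTCA. Over all start windows of protein-coding genes, 6.19% had a peak of saline replicate 2, and 1 of the 11 windows of interneuron genes did. Within 50 kb, 30.2% of protein-coding genes had such a peak, and of the interneuron genes 2 of 9 did. Neither of these 2 saline peaks reached a −log10 q of 5, which 4, 19 and 9 peaks of kainic acid replicates 1, 2 and 3 did.

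All 27 regions near the 9 genes had a peak in kainic acid replicate 2, so their ranks can be set side by side within that list. The median percentile there was 10.6 for the 5 regions in all 3 kainic acid lists (5.20 to 68.9), 20.0 for the 7 in 2 lists (10.7 to 77.1) and 68.9 for the 15 in replicate 2 alone (3.09 to 99.9). Over all regions with a peak of replicate 2 the medians were 12.2, 36.4 and 65.5, which is the same order. The ranges overlap, and the peak beside Dlx2 ranks above every shared region. Within each list, the median rank of regions near interneuron genes was a percentile of 27.1, 38.3 and 38.5 in replicates 1, 2 and 3 (5, 27 and 12 regions), where 50 is the middle of a list.

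**Figure D5:**
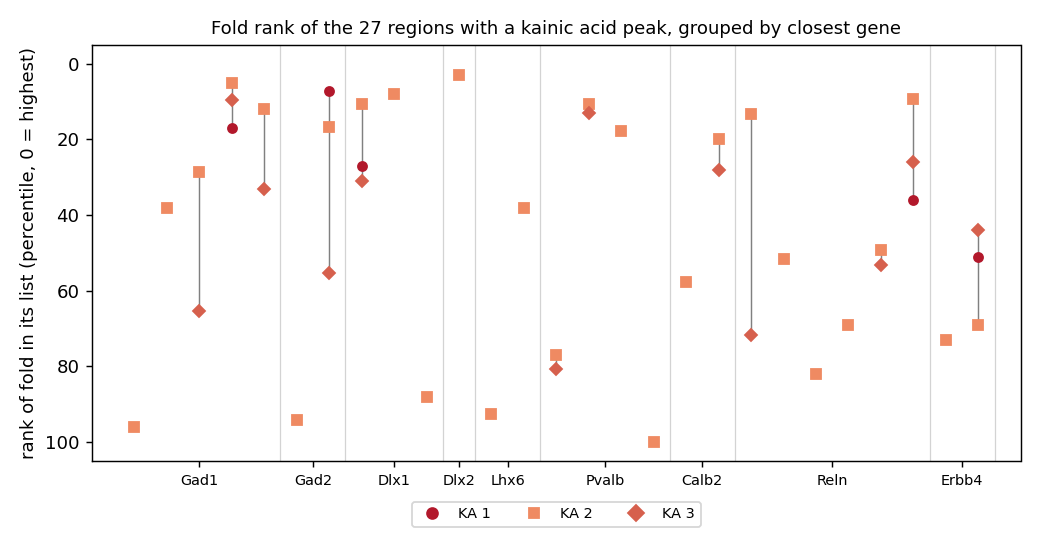
Rank of the deposited fold within its list, as a percentile with 0 at the top for the highest fold (vertical axis), for each of the 27 regions with a kainic acid peak, grouped by closest gene (horizontal axis). Points are lists and grey lines join those of a region; the Gad1 region in all 3 lists spans 5.20 to 17.0, and the Dlx2 point at 3.09 stands alone.

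A wider list of 50 genes of interneuron identity and function, none of them among the 9, was read the same way. Of these, 49 were protein-coding genes with a position. Their kainic acid density was 1.01 ± 0.773 peaks per 100 kb (SD, n = 3), or 0.537 ± 0.0379 times that of all genes. A region in at least 2 kainic acid lists was found for 27 of 49 (55.1%), beside 62.7% of all protein-coding genes, and in all 3 lists for 14 (28.6%), beside 42.5%. There was no kainic acid peak near 11 of 49. A peak of any kainic acid list was found near the other 38, and near 78% of all protein-coding genes.

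The most shared regions per 100 kb were near Prox1, at 5.24 (regions in at least 2 kainic acid lists). Prox1 is a homeobox gene of some interneurons but also of dentate granule cells, and stands in both lists. High values were also found near Cplx1, a complexin of transmitter release, at 3.04. The potassium channel gene Kcnc1 of fast-spiking cells had 2.11. Genes with no kainic acid peak within 50 kb included the peptide gene Vip, Ndnf of neurogliaform cells, and the transcription factor genes Nkx2-1, Nr2f2, Dlx5 and Dlx6. Saline replicate 2 had a peak near 8 of 49 genes, among them Cck, Nos1, Id2, Sox6, Satb1 and Kcnc1, beside 30.2% of all protein-coding genes.

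Over the 6 lists, the genes whose peaks per 100 kb lay closest to those of the 9 genes pooled were Sox6, Adarb2 and Crh, at Euclidean distances of 0.201, 0.450 and 0.544 peaks per 100 kb. Sox6 had 2, 7 and 4 peaks in kainic acid replicates 1, 2 and 3 and 1 in saline replicate 2, over a window of 670 kb.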

How the data were processed

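Peaks are from 6 lists, 1 per library, from 3 kainic acid and 3 saline libraries. Per the submitters' processing notes, the authors used Trim Galore 0.6.4, Bowtie2 2.3.4.3, MACS2 and deepTools 3.5.0 with the build mm10; peak names carry a mapping quality of 30. The cutoff and control of the peak calls are not given in the sources used here. Each deposited fold is a linear ratio of a peak to its local background. The deposited score is 10 times the −log10 q, rounded down. Values of −log10 p and −log10 q were deposited per library too. None is scaled between libraries, so folds were only ranked within a list.

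Gene spans and start windows came from RefSeq GRCm38.p6, the same assembly as mm10. Peaks overlapping a window by 1 bp were counted. Windows that overlap were joined before densities were computed, so a peak counts 1 time. Peaks of all lists were merged when they shared 1 bp. Groups were compared with two-sided exact permutation tests over 20 assignments, in Python 3.11.15 with scipy 1.17.1. Reads over a summit were recovered by taking the fold as (reads + 1)/(background + 1) and the deposited p-value as Poisson, an inferred model; 46 of 46 peak values had a single solution. Counting and solving were tested on simulated data.

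All 9 genes are named. For each, the region in the most kainic acid lists with the best mean rank is given, and every saline peak. Of the wider list, the 4 densest genes (1 of them is not reported here), 6 with a saline peak, 6 with no kainic acid peak (both taken in the order in which the list was written, not by value) and the 3 closest in density are named. The peak beside Dlx2 and other single regions were chosen after their values were seen. The 9 genes, the wider list and the lists of other cell types were all chosen with earlier results of these data known, so a comparison between lists is not independent evidence. Alternatives were the reach, −log10 q, equal list lengths, summits, merging, the number of lists and leaving out libraries.

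Replicate numbers are shared by both groups without a stated meaning. Deviations of gene densities from group means correlated at 0.406, 0.408 and 0.239 for same-numbered libraries. Libraries numbered 1 and 3 across groups correlated equally (0.406 and 0.239), since saline replicate 2 sets all saline deviations, so these values cannot show a pairing.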

Additional observations from a re-analysis of the deposited data

How the results depend on the processing

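The difference in peak density between kainic acid and saline, 0.579 peaks per 100 kb, was positive in each setting on that scale. It was 0.309 to 0.783 when a library was left out, 0.224 with −log10 q of at least 10, 0.303 with equal list lengths and 1.30 without Erbb4 and Reln. No setting of this size can bring p under 0.05, and p therefore carries no information on stability. With the replicate block it was 0.579 (exact sign-flip permutation p = 0.25, the smallest 3 pairs allow). After division by each list's density over all genes, the log2 difference was 0.857 (exact permutation p = 0.8), but saline replicate 1 enters it at 0 and no direction is read from it. Saline replicate 2, at 0.415, was above each kainic acid list, and saline replicate 3 could not be scaled. Shared regions numbered 12, and 6 with a reach of 10 kb or in gene spans alone. There were 3 at −log10 q of 10 or more, 7 under equal list lengths, 5 when all 3 lists were required, and 5 to 12 with a kainic acid library left out. The share in at least 2 lists was 25.0% with −log10 q of at least 10, 18.5% for all 3 lists, and 17.2% to 44.4% with a library left out. Genes with such a region fell from 8 to 4 with a reach of 10 kb and to 4 in gene spans. They fell to 3 with −log10 q of at least 10, and were 6 to 8 with a kainic acid library left out. The matching shares over all protein-coding genes were not computed at these settings. A shorter reach, a stricter cutoff or fewer lists can only lower such a count, so the fall is not read as a result about the interneuron genes.

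The ratio of density to that of all genes, added after the data were seen, was below 1 in each setting run. It was 0.199 with a reach of 10 kb, 0.415 with 100 kb, 0.192 in gene spans, 0.398 with −log10 q of at least 10, 0.436 with equal list lengths, 0.665 without Erbb4 and Reln and 0.756 from medians over genes (2 lists). Kainic acid replicate 1 could not enter the medians, since its median was 0 over all genes and 0.178 over the 9 genes. Medians without Erbb4 and Reln were not run as a setting, and there the 1.73 of the interneuron genes was above the 1.30 of all genes. With a kainic acid library left out it was 0.292 to 0.335. The cause of these shifts was not tested. Counts for single genes changed in 43 of 90 alternatives, 39 to fewer and 4 to more. They moved by over 1.5 times in 36, of which 21 were at 0. The number of peaks called limits all of these values.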

Other observations

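With a reach of 100 kb in place of 50 kb, more regions in at least 2 kainic acid lists came within range of 4 of the 9 genes. Gad1 had 5 in place of 3, Dlx1 had 3 and Dlx2 had 4 in place of 1 each, and Lhx6 had 1 in place of 0. The numbers for Gad2, Pvalb, Calb2, Reln and Erbb4 stayed at 1, 2, 1, 3 and 1. Dlx1 and Dlx2 lie side by side, so their counts are not independent. A wider reach can only add regions. The share of all protein-coding genes that gained a region was not computed, so the gain is not read as a result about these genes.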
